A study of Homo sapiens with 11 samples.

Results

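The genes described here were chosen by name for their known roles, with earlier results of these data known. They are 41 human genes whose products copy DNA. They comprise the MCM helicase (6 genes), the factors that activate it (6), origin licensing (4), the sliding clamp and its loader (6), the replicative polymerases with primase (9), the single-strand binding complex RPA (3), lagging strand completion (2), nucleotide synthesis (3) and cyclin E (2). All 41 were among the 25590 genes listed in the deposited tables and among the 16630 genes with enough reads for a test. Their RNA was measured by RNA sequencing in 11 xenograft tumours of PC-3, an established human prostate carcinoma cell line. The tumours had grown under the skin of male athymic nude mice (Crl:NU-Foxn1nu), which were 8 weeks old when the cells were injected in matrigel. After 7 days of growth the mice were given repeated intraperitoneal injections, either of 5.6 mg A2M*, the transformed form of the proteinase inhibitor alpha2-macroglobulin, or of PBS as control. The labels name 5 tumours PBS (T123 to T127) and 6 tumours A2M (T128 to T132 and T112), and apart from the injection they name no difference between the groups. Nude mice lack mature T cells, the tumours all derive from the same cell line, and the labels do not say whether each tumour came from its own mouse, so that p-values measure the spread between these tumours.

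Replication starts at origins, where the origin recognition complex, CDC6 and CDT1 load the ring-shaped MCM helicase onto DNA before S phase. CDC45 and GINS then join the ring and activate it, polymerases alpha, delta and epsilon copy the opened strands with the help of the clamp PCNA, and RPA covers the single strands in between. Many of these genes are targets of the E2F transcription factors, which are held back by the RB protein until cyclins and their kinases phosphorylate it, and in tumours their RNA is commonly read as a measure of how many cells divide.

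Because E2F factors act at the start sites of many of these genes, the bases before the start were searched for the E2F motif spelled TTTCCCGC, TTTCGCGC, TTTGCCGC or TTTGGCGC, on either strand, with overlapping matches counted separately. The promoter table of RefSeq (GRCh38.p14) held an entry for 34 of the 41 genes. In the 250 bases before the start, 12 of the 34 (35.3%) held the motif, against 761 of all 27305 promoters of that length (2.79%). The 12 were MCM3, MCM6, MCM7, GINS2, CDT1, PCNA, RFC3, POLA1, POLA2, POLE, LIG1 and TYMS. CCAAT, the letters bound by NF-Y, stood in 20 of the 34 (58.8%) and in 9021 of all promoters (33%). Of the related lists described further on, 6 of 20 promoters of the E2F and RB pathway (30%), 3 of 39 of other replication genes (7.69%) and 1 of 18 of mitosis genes (5.56%) held the E2F motif. A match is a description of the letters and not a measured binding site. The stretches around the motif are given for the 4 genes of this kind whose RNA followed the other replication genes most closely over the tumours, with the motif in capitals and the strand of the gene read 5′ to 3′. They lie at chr2:135876502-135876615 (minus strand, MCM6), chr6:52284877-52284936 (minus strand, MCM3), chr13:33818074-33818133 (plus strand, RFC3) and chr18:657593-657652 (plus strand, TYMS), all GRCh38.p14. In MCM6 each capital stretch holds overlapping matches on both strands, 4 in all, and in RFC3 and TYMS the match is on the opposite strand.
MCM6: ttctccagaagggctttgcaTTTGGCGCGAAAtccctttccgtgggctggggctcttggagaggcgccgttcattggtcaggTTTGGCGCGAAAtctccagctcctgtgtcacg
MCM3: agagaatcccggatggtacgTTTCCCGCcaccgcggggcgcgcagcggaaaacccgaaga
RFC3: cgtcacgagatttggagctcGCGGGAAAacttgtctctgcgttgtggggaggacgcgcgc
TYMS: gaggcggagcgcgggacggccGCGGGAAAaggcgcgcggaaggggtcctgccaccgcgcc

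The total count of a tumour lay between 16958533 and 35874381, and the 41 genes took 0.162% to 0.206% of them. The lowest count of any of the 41 in a tumour was 86 and the highest 6798, so that all lay above the limit of 3 counts (0.0836 to 0.177 RPM, counting error only). The epithelial keratin KRT8 stood at 585 ± 40.9 CPM in the PBS tumours (SD, n = 5) and 529 ± 57.4 CPM in the A2M* tumours (SD, n = 6), CPM being counts per 1e+06 counts after TMM normalization. The prostate luminal genes KLK3 and KLK2 had at most 1 count in any tumour. Among human genes that are markers of host cell types, CD3E, DCN and LUM had at most 5 counts per tumour. The summed level of the tested fibroblast markers was 317 to 695 CPM in the PBS tumours and 318 to 926 CPM in the A2M* tumours, that of the leukocyte markers 23.1 to 32.6 and 23.8 to 31.4 CPM, and that of the endothelial markers 17.3 to 24.4 and 15.7 to 23.0 CPM. The fibroblast sum was mostly COL1A1, a collagen chain, at a mean of 456 CPM in the PBS and 588 CPM in the A2M* tumours. All 4 tested fibroblast markers had a positive log2 fold change, A2M* minus PBS (median 0.448), with COL1A2 at 0.73 (edgeR, unadjusted p = 0.0459, adjusted p = 0.699), and all 4 epithelial markers a negative one (median -0.11). Of the 4 tested endothelial markers 3 were negative and 1 positive (median -0.0866), with VWF at -0.42 (edgeR, unadjusted p = 0.0247, adjusted p = 0.648). VWF was low, at means of 0.953 CPM in the PBS and 0.703 CPM in the A2M* tumours. Of the 3 tested leukocyte markers 2 were negative and 1 positive (median -0.0826), with PTPRC at -0.44 (edgeR, unadjusted p = 0.0682, adjusted p = 0.735). These counts are of reads sorted as human, while the host cells are mouse cells. The levels of the host markers are therefore no measure of the amount of host cells. Neither the source of their reads nor the part of host cells in the results below was tested. In a bulk tumour, fewer dividing cells and less RNA per cell cannot be told apart.

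To compare levels between genes, the deposited RPKM was used, which divides by the exon length of the gene. The median of the 41 genes was 10.5 RPKM and that of all genes tested 6.55 RPKM. By role, the medians were 25.9 RPKM for the MCM helicase, 20.95 for lagging strand completion, 19.3 for RPA, 16.9 for nucleotide synthesis, 16.5 for the clamp and its loader, 10.5 for polymerases and primase, 5.03 for helicase activation, 4.74 for origin licensing and 3.203 for cyclin E. The highest was PCNA, the sliding clamp that holds polymerases on DNA, at 60.1 ± 8.92 RPKM in the PBS tumours (SD, n = 5) and 62.7 ± 5.02 RPKM in the A2M* tumours (SD, n = 6). The helicase subunits MCM7 and MCM4 followed, with means over the 11 tumours of 43.2 and 38.3 RPKM. The lowest were the helicase activator MCM10 (1.68 RPKM), cyclin E1 (CCNE1, 2.64 RPKM) and the origin recognition subunit ORC1 (2.77 RPKM).

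**Figure D1:**
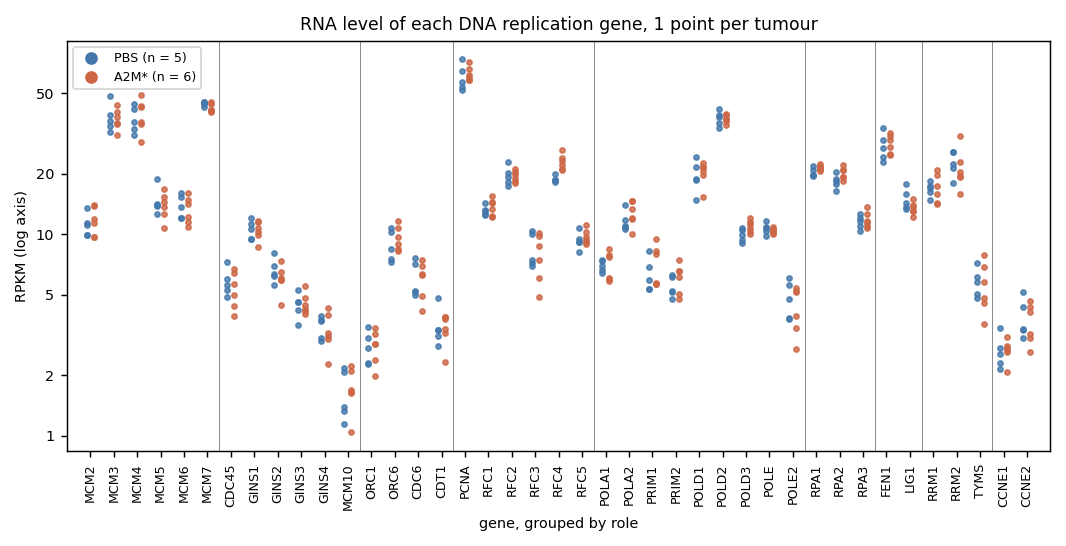
RPKM (log axis) of each of the 41 genes in every tumour, with PBS tumours in blue and A2M* tumours in orange and vertical lines between the role groups. PCNA stands highest and MCM10 lowest, and the points of both groups overlap for each gene except RFC4.

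The subunits of a complex were not at equal RPKM. In the MCM ring, which holds its subunits in equal number, the mean order was MCM7, MCM4, MCM3, MCM5, MCM6 and MCM2, and the ratio of the highest to the lowest in a tumour averaged 3.84 (2.96 to 4.59 over the 11 tumours). MCM3 was above MCM5 and MCM6 above MCM2 in 11 of 11 tumours. MCM7 was above MCM4 in 8, MCM5 above MCM6 in 7 and MCM4 above MCM3 in 5 of the 11, so those neighbours did not keep an order. The GINS subunits kept the order GINS1, GINS2, GINS3, GINS4 in all 11 tumours, and the polymerase delta subunits the order POLD2, POLD1, POLD3, with mean ratios of 3.15 and 3.6 between the highest and the lowest. POLE, the catalytic subunit of polymerase epsilon, was above POLE2, RRM2 above RRM1 and CCNE2 above CCNE1 in 11 of 11 tumours, with mean ratios of 2.44, 1.29 and 1.42. In RPA the order RPA1, RPA2, RPA3 held in 10 of the 11. In the clamp loader, RFC4 was above RFC2 in 7 of the 11, and RFC2 above RFC1 and RFC1 above RFC5 in all. RPKM divides by annotated exon length, and the use of shorter isoforms was not measured.

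The question of the comparison was whether A2M* changes gene activity in the tumour cells. None of the 41 genes passed the adjusted p threshold of 0.01 in edgeR's quasi-likelihood test with Benjamini-Hochberg adjustment over all genes tested, and neither did any other of the 16630 genes (0%). DESeq2 and the exact test of edgeR each gave 1 gene past that threshold, REP15, which is not among the 41, and limma-voom gave 0. At an unadjusted p under 0.05 there were 3 of the 41 (7.32%), beside 7.08% of all genes tested. RFC4 was the 1 gene of these higher in A2M* tumours (3.55% of all genes), and MCM7 and LIG1 were lower (3.53% of all genes). These shares are close to the background, so the count is no result about replication genes. The log2 fold changes of the 41, A2M* minus PBS, lay between -0.19 (POLE2) and 0.24 (RFC4) with a median of -0.027, beside -0.00213 over all genes, and 26 were negative and 15 positive. With library size alone as the scaling the median was 0.0136, and with limma on RPKM it was 0.005876, so its sign depended on the scaling. The 95% interval of the fold change lay within 1.5-fold either way for all 41, and for 81.5% of all genes tested.

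**Figure D2:**
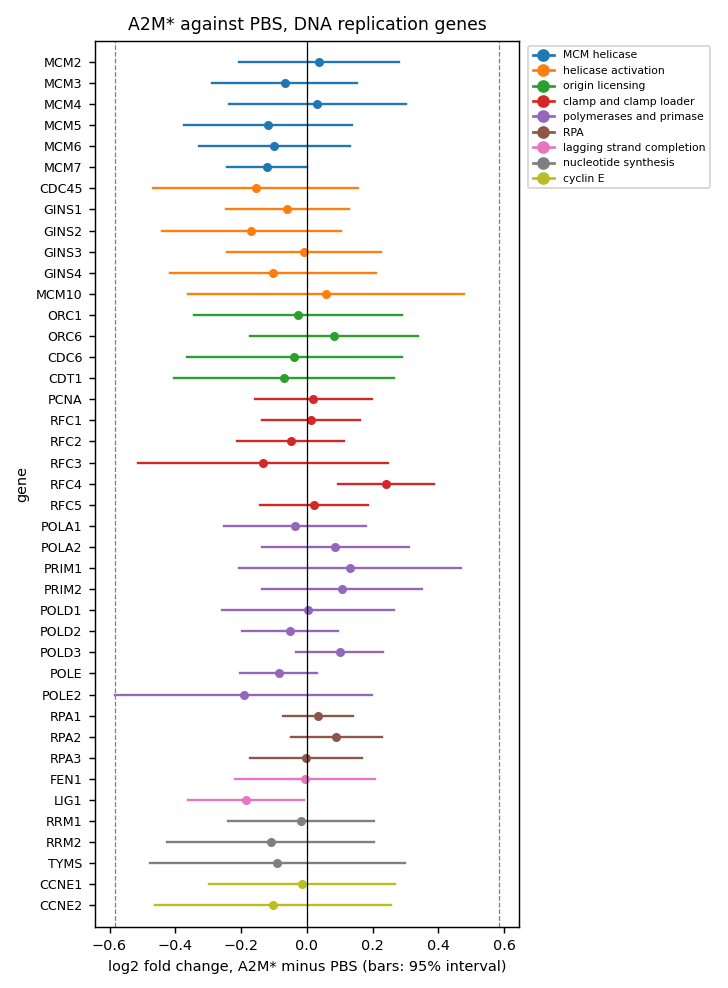
Log2 fold change of each gene, A2M* minus PBS (x axis), with its 95% interval as a bar and colours for the role groups, and dashed lines at 1.5-fold. The bars of RFC4, MCM7 and LIG1 leave out 0, and those of the other genes include it.

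RFC4, a subunit of the clamp loader that places PCNA on DNA, separated the groups. Its levels in the PBS tumours T123 to T127 were 31.3, 30.9, 30.8, 29.1 and 29.3 CPM, and in the A2M* tumours 33.3 at the lowest, 34.96 at the median and 40.4 at the highest. Every A2M* tumour was above every PBS tumour, and groups that do not overlap, in either direction, were found in 0.71% of all genes tested and in no other of the 41. The group means were 30.3 ± 0.983 CPM (SD, n = 5) and 35.8 ± 2.86 CPM (SD, n = 6). The log2 fold change was 0.24 with a standard error of 0.068 (edgeR quasi-likelihood test, unadjusted p = 0.003375, Benjamini-Hochberg adjusted p = 0.599). It lay between 0.205 and 0.263 when each tumour was left out in turn, with an unadjusted p of 0.00961 or less each time. RFC4 lies on chromosome 3 at 186507669 to 186524847 (GRCh37, minus strand). Of the 2997 exon bases of RFC4 in GENCODE, 18 are shared with EIF4A2 on the other strand, whose log2 fold change was 0.198 (edgeR, adjusted p = 0.729). Whether the counting used strand is not given in the sources used here. The other loader subunits and the clamp had log2 fold changes of 0.01 for RFC1, -0.05 for RFC2, -0.13 for RFC3, 0.02 for RFC5 and 0.02 for PCNA. The PCNA levels were 105, 86.0, 80.5, 92.0 and 76.1 CPM in the PBS tumours and 83.3 to 99.8 CPM with a median of 87.4 in the A2M* tumours, which lay inside the PBS range.

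In the MCM helicase, MCM7 had the smallest p. Its PBS levels were 162, 173, 168, 156 and 169 CPM, and the A2M* tumours lay between 144 and 165 CPM with a median of 150. The A2M* tumours reached into the PBS range from below. The log2 fold change was -0.12 with a standard error of 0.0563 (edgeR quasi-likelihood test, unadjusted p = 0.0484, Benjamini-Hochberg adjusted p = 0.70). On leaving out each tumour the unadjusted p ran from 0.0264 to 0.114 and was under 0.05 in 3 of 11 cases. It was 0.0547 without the filter on low counts, 0.0726 in edgeR's exact test and 0.165 with library size only. MCM7 lies on chromosome 7 at 99689856 to 99699563 (GRCh37, minus strand), shares 392 exon bases with AP4M1 on the other strand, and holds MIR93. MCM4 was at 214, 185, 159, 204 and 166 CPM in the PBS tumours and 137 to 235 CPM (median 190) in the A2M* tumours, which spread more widely than the controls on either side. MCM6 was at 59.9, 54.0, 47.3, 57.3 and 46.6 CPM, and at 40.2 to 59.0 CPM (median 49.2) under A2M*, with both groups overlapping over most of their range. The log2 fold changes were 0.04 for MCM2, -0.07 for MCM3, 0.03 for MCM4, -0.12 for MCM5 and -0.10 for MCM6, with adjusted p of 0.892 or more in edgeR.

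LIG1, the ligase that seals Okazaki fragments, stood at 68.4, 61.0, 64.7, 59.3 and 79.0 CPM in the PBS tumours and at 51.9 to 64.3 CPM (median 58.8) in the A2M* tumours. T127 was the highest of all tumours, and the groups overlapped. Its log2 fold change was -0.18 with a standard error of 0.0818 (edgeR quasi-likelihood test, unadjusted p = 0.0407, Benjamini-Hochberg adjusted p = 0.698). Without T127 the unadjusted p was 0.144, and it was under 0.05 in 5 of the 11 fits that left out a tumour. LIG1 lies on chromosome 19 at 48618702 to 48673860 (GRCh37, minus strand). FEN1, the nuclease that trims the flaps LIG1 then seals, had a log2 fold change of -0.01.

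**Figure D3:**
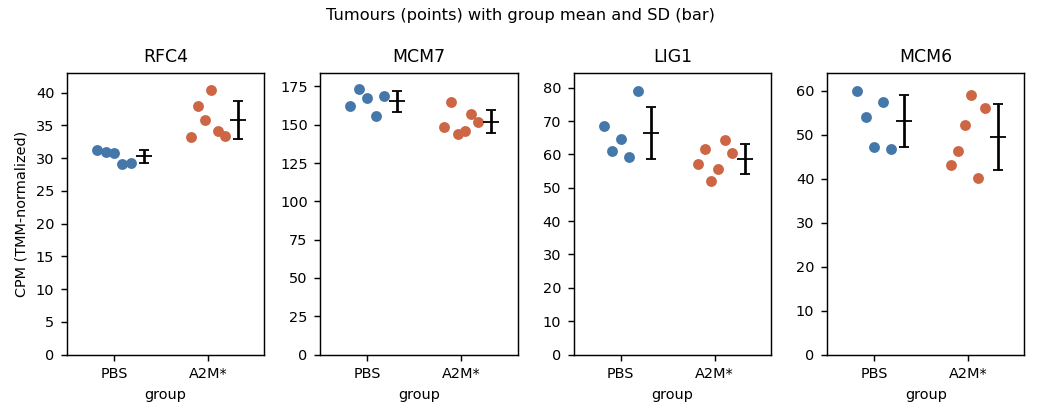
CPM of RFC4, MCM7, LIG1 and MCM6 in each tumour (points), with the group mean and SD as a bar, PBS in blue and A2M* in orange. The RFC4 points do not overlap (PBS up to 31.3, A2M* from 33.3 CPM), and those of MCM7, LIG1 and MCM6 do.

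Of the helicase activators, CDC45, which joins the MCM ring, was at 14.95, 12.1, 11.4, 12.3 and 10.3 CPM in the PBS tumours and 7.92 to 14.0 CPM (median 10.9) in the A2M* tumours. GINS2, a subunit of the GINS complex, was at 9.38, 6.90, 7.79, 8.21 and 7.45 CPM, against 5.12 to 8.76 CPM (median 7.07), and MCM10 was at 9.75, 6.64, 6.28, 9.35 and 5.32 CPM, against 4.64 to 9.85 CPM (median 7.655). In all 3 the lowest tumour of the 11 was the A2M* tumour T132, and the groups overlapped. The log2 fold changes of the 6 activators lay between -0.169 (GINS2) and 0.0576 (MCM10), with adjusted p of 0.843 or more (edgeR). Among the licensing factors, ORC1 was at 10.8, 9.02, 7.48, 9.58 and 7.39 CPM and at 6.12 to 10.5 CPM (median 8.92) under A2M*, and ORC6 was at 18.002, 14.9, 12.8, 17.2 and 13.0 CPM and at 13.6 to 19.0 CPM (median 15.5). The A2M* tumours reached lower than the controls in ORC1, and in ORC6 the groups spanned nearly the same range. CDC6 and CDT1, which load the MCM ring together with the origin recognition complex, had log2 fold changes of -0.04 and -0.07.

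Among the polymerases, POLD3, an accessory subunit of polymerase delta, was at 44.2, 39.2, 40.5, 43.3 and 41.9 CPM in the PBS tumours and 41.2 to 48.4 CPM (median 44.9) in the A2M* tumours. Its catalytic partner POLD1 was at 82.8, 66.9, 67.6, 50.8 and 76.4 CPM, and at 51.9 to 78.3 CPM (median 72.05) under A2M*. The controls T126 and T123 were the extremes for POLD1, and the A2M* tumours lay between them. POLE was at 92.6, 91.2, 81.8, 85.3 and 85.0 CPM and at 78.0 to 87.3 CPM (median 82.15), and POLE2 at 10.74, 7.80, 9.63, 11.8 and 7.56 CPM and at 5.12 to 10.2 CPM (median 8.75). The A2M* tumours reached below the controls in both epsilon subunits, and the groups overlapped. The log2 fold changes were 0.10 for POLD3, -0.09 for POLE and -0.19 for POLE2, with adjusted p of 0.797, 0.803 and 0.885 (edgeR quasi-likelihood test). Those of POLA1, POLA2, PRIM1 and PRIM2, which make the primers, were -0.04, 0.09, 0.13 and 0.11. RPA1 was at 94.0, 88.6, 89.0, 89.8 and 86.9 CPM and at 89.3 to 97.4 CPM (median 91.2), and RPA2 at 39.3, 33.6, 36.2, 36.5 and 36.4 CPM and at 36.1 to 41.8 CPM (median 38.6). The RPA groups overlapped, with log2 fold changes of 0.03 for RPA1 and 0.09 for RPA2 and adjusted p of 0.928 and 0.838 (edgeR).

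RRM2, the regulated subunit of ribonucleotide reductase that supplies deoxynucleotides, was at 86.7, 80.3, 75.6, 87.4 and 62.8 CPM in the PBS tumours and 53.2 to 107 CPM (median 67.3) in the A2M* tumours. TYMS, which makes thymidylate, was at 9.65, 9.57, 8.30, 11.4 and 7.76 CPM and at 5.51 to 12.5 CPM (median 8.29). In GENCODE the exons of TYMS share 967 bases with those of ENOSF1 on the other strand. Reads in such shared bases cannot be told apart without strand. In both RRM2 and TYMS the A2M* tumours T132 and T112 were the lowest and the highest of all 11. The log2 fold changes were -0.11 for RRM2 and -0.09 for TYMS, with adjusted p of 0.92 and 0.951 (edgeR). On leaving out each tumour, the log2 fold change of RRM2 ran from -0.251 to -0.0353. Its unadjusted p (edgeR quasi-likelihood test) was under 0.05 in 1 of the 11 fits, 0.0356 without T112, and was highest without T132, at 0.798. CCNE1 was at 6.598, 5.16, 4.65, 5.27 and 4.26 CPM and at 3.94 to 6.07 CPM (median 5.17), and CCNE2 at 11.8, 9.57, 9.60, 14.0 and 8.47 CPM and at 6.91 to 12.8 CPM (median 9.82). Both cyclin E genes, which switch on the kinase CDK2 at the start of S phase, overlapped between the groups, and their log2 fold changes were -0.02 and -0.10.

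The tumours differed among themselves within both groups, and most of the 41 genes moved together. Taking for each gene its log2 CPM minus its mean over the 11 tumours, the median over the 41 genes was 0.216 in T123, -0.00482 in T124, -0.0775 in T125, 0.0894 in T126 and -0.135 in T127. The A2M* tumours ran from -0.262 in T132 to 0.192 in T112, with T131 at 0.164. The PBS group (-0.135 to 0.216) lay within the A2M* range at its lower end and just above it at its upper end. T132 held the lowest value of 24 of the 41 genes, while T123 held the highest of 17 and T131 of 13. T132 had 22310631 counts, T123 29852734 and T131 26930311. Between T131 and T132, which were picked after their values were seen, the median difference over the 41 genes was 0.483 on the log2 scale, with 37 higher in T131, and over the 23 mitosis genes it was 0.982, with all 23 higher. The summed epithelial markers were 1341 CPM in T131 and 1739 CPM in T132, and the summed fibroblast markers 774 and 599.9 CPM. The part of these differences in the tumours' order was not tested.

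**Figure D4:**
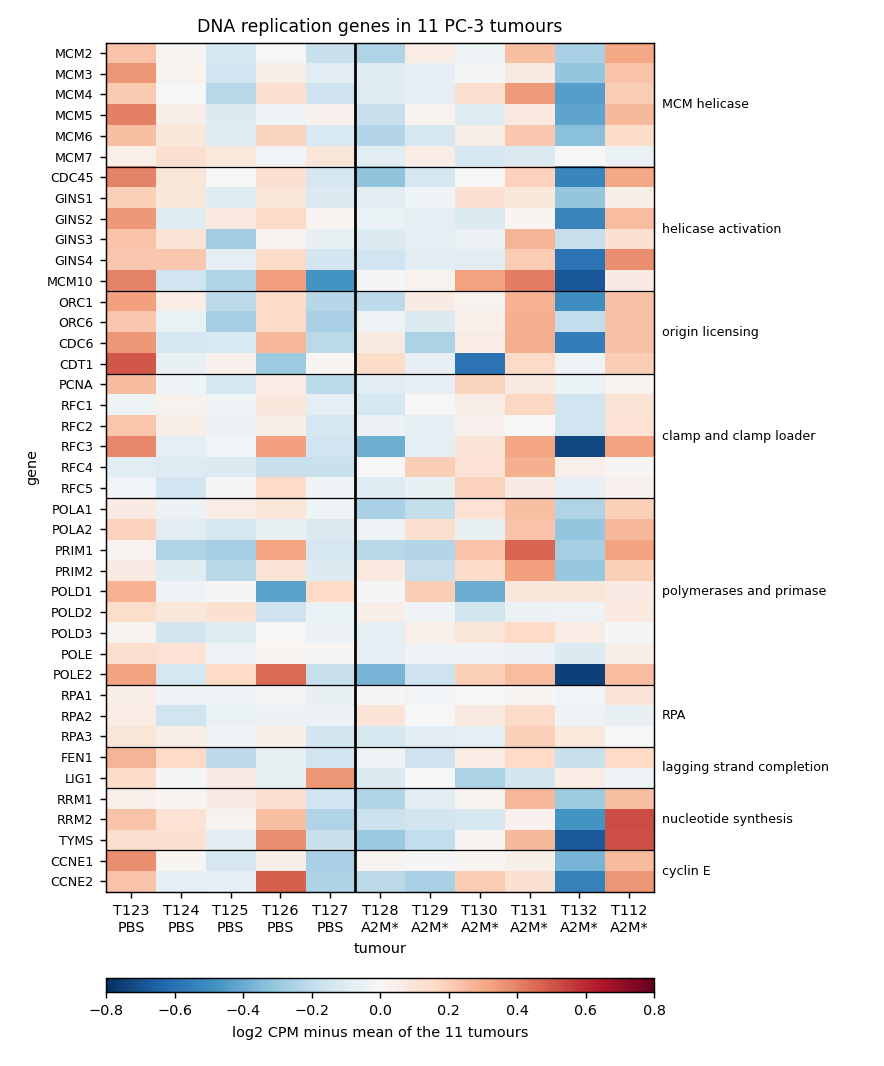
Log2 CPM of each gene minus its mean over the 11 tumours (colour), with genes in rows by role and tumours in columns, PBS to the left of the black line. T123, T131 and T112 are mostly above the mean (38, 36 and 36 of 41 genes), and T132 mostly below it (5 of 41 above).

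The coefficient of variation of CPM over the 11 tumours had a median of 13.2% over the 41 genes, beside 13.1% over all genes tested and 21.9% over the mitosis genes. It was largest in MCM10 (23.6%), POLE2 (22.7%) and TYMS (22.4%), and smallest in RPA1 (3.17%), POLE (5.28%) and POLD3 (6.18%). RPA1, the large subunit of the single-strand binding complex, ranged over the 11 tumours from 86.9 to 97.4 CPM, and MCM10 from 4.64 to 9.85 CPM.

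Over the 11 tumours the 820 pairs of replication genes had a median Pearson r of 0.581 for log2 CPM, and 56.6% of pairs were above 0.5. For the 41 genes against all other genes tested the median was -0.0111, with 16.0% above 0.5. These coefficients describe 11 tumours that share a cell line and a normalization, and no p was attached to them. With the mitosis genes the median was 0.715, and the mitosis genes among themselves stood at 0.913. MKI67, the gene of the proliferation antigen Ki-67, was at 99.7, 91.4, 78.5, 128.05 and 72.7 CPM in the PBS tumours and 57.8 to 123.3 CPM (median 90.3) in the A2M* tumours, and its r with the 41 genes had a median of 0.749. T132 was the lowest in MKI67 too. Centred within each treatment group, the median r among the 41 genes was 0.615, and it lay between 0.545 (without T132) and 0.61 when each tumour was left out.

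The agreement was uneven. The genes closest to the rest were ORC1, CDC45 and MCM6, with mean r of 0.649, 0.638 and 0.637 to the other 40 genes. RRM1, RRM2 and TYMS had a median r of 0.916 with each other, and the helicase activators 0.755. MCM2 to MCM6 correlated with each other at 0.734 to 0.934, but MCM7, the sixth subunit of the same ring, stood at -0.444 to 0.132 with them. MCM7 instead had r = 0.728 with LIG1, and these genes had the lowest mean r of all, -0.21 for MCM7 and -0.188 for LIG1, followed by POLD1 at -0.0192. Leaving out each tumour, the mean r of MCM7 lay between -0.291 and -0.118 and that of LIG1 between -0.33 and -0.0603. RFC4 had r between -0.116 and 0.289 with the other loader subunits, which had a median of 0.588 among themselves, and its mean r was 0.0667, falling to -0.123 without T131. In polymerase delta, POLD1 and POLD2 had r = 0.616 and POLD2 and POLD3 r = -0.519. By a limit of 0.4 set after the values were seen, 10 genes had a lower mean r (MCM7, LIG1, POLD1, RFC4, POLD2, RPA2, POLD3, CDT1, RFC5 and RPA3), with a median coefficient of variation of 7.33%, and the other 31 had 0.42 to 0.649 and 14.1%. The 12 genes with the E2F motif had a median mean r of 0.534 and the 22 without it 0.563. MCM7 and LIG1, the lowest in mean r, both held it, while POLD1, RFC4 and POLD2, the next lowest, did not.

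**Figure D5:**
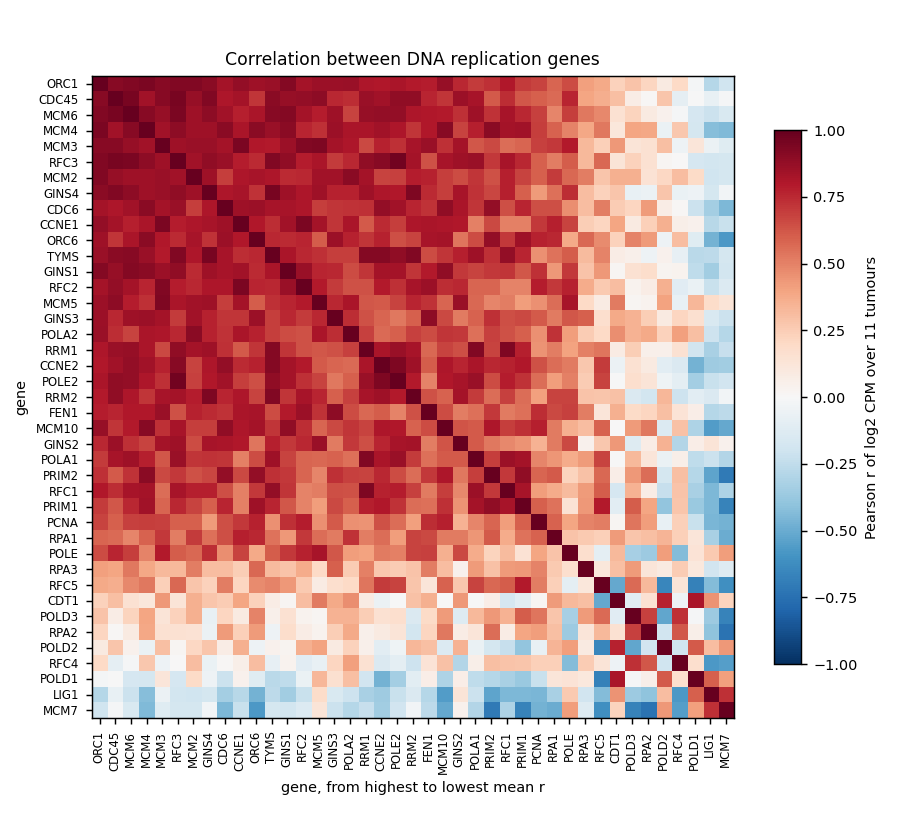
Pearson r of log2 CPM over the 11 tumours between every pair of the 41 genes (colour), ordered from the highest mean r (ORC1, 0.649) to the lowest (MCM7, -0.21). A block of high r covers the upper left, and POLD1, LIG1 and MCM7 at the lower right are near or below 0 with most of the others.

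Of 47 other replication genes tested, 1 had an unadjusted p under 0.05, the MCM paralog MCM8 with a log2 fold change of 0.27 (edgeR quasi-likelihood test, Benjamini-Hochberg adjusted p = 0.676), and the median was 0.0268. The next were CDC7, the kinase that fires origins, at 0.27 and the origin factor MTBP at 0.24, neither under 0.05. Of the 25 genes of the E2F and RB pathway tested, 1 was under 0.05, the cyclin CCND1 at 0.21 (adjusted p = 0.697, edgeR), while CDKN2C and CDKN2D, inhibitors of the kinases that cyclin D activates, stood at -0.24 and -0.18, and the median was 0.0114. None of the 23 mitosis genes was under 0.05, their median was 0.0617 with 20 positive, beside 8220 of the 16630 genes tested, and these genes are not independent of each other, their median pairwise r being 0.913. The 3 with the smallest p were KIF20A, a mitotic kinesin, at 0.23, BIRC5, which codes for survivin, at -0.14 and cyclin B1 (CCNB1) at 0.11, and MKI67 had -0.02. No gene of these lists passed the threshold.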

How the data were processed

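The 11 tumour libraries were prepared by the authors with an Illumina TruSeq v2 kit. Reads were sorted into human and mouse, and human reads were mapped to hg19 with TopHat2 and counted per gene with featureCounts. The strand setting is not given in the sources used here. The deposited counts are raw whole numbers. The authors further deposited RPM, which equals the count per 1e+06 counts (largest difference 4.99e-07), and RPKM, which divides RPM by the exon length.

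The members and lists were chosen with earlier results of these data known. Groups followed the treatment labels, without covariates or pairing. In R 4.3.3, edgeR 4.0.16 served for the filter (filterByExpr), TMM scaling (factors 0.958 to 1.03) and the quasi-likelihood test of 16630 genes. A Benjamini-Hochberg adjusted p under 0.01 was the threshold. These steps were tested on simulated data with 200 genes changed. At this threshold they found 45% of 1.5-fold, 84.5% of 2-fold and 97% of 4-fold changes. The false calls in these runs numbered 0, 4 and 2. Correlations used log2 CPM with a prior count of 2. The chi-square per degree of freedom between libraries was 9.81 to 71.2 over 55 pairs, so none had been entered more than once. Alternatives were RLE and library size scaling, leaving out the filter, asking for 10 counts in every tumour, the exact test, DESeq2 1.42.0, limma-voom and limma 3.58.1 on log2(RPKM + 0.1), adjusted p under 0.05, an unadjusted p up to 0.01 asked of edgeR and DESeq2 alike, and each tumour left out. CPM levels are given for members with an unadjusted p under 0.05, the smallest p in each role, the 3 highest and lowest in RPKM, in coefficient of variation and in mean r. These levels are per tumour for PBS, and the lowest, median and highest for A2M*. Of each related list the 3 genes with the smallest p and MKI67 are named. Gene positions and exon overlaps are from GENCODE mapped to GRCh37, and promoters from RefSeq on GRCh38.p14. The authors counted reads on a RefSeq annotation of hg19, so the exons counted may differ from those of GENCODE. Exons of 21 members overlap another gene and 10 members have annotated pseudogenes, so that their counts are less certain. Plots were made with matplotlib 3.10.9 (Python 3.11.15).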

Additional observations from a re-analysis of the deposited data

Results flagged for a closer look

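In 3 of 82 groups of tumours searched, the highest or lowest tumour stood apart from the rest of its group by Dixon's 95% limit, where chance gives 1 in 20, or 4.1 groups. MCM5, a subunit of the MCM helicase, was at 47.58 CPM in the PBS tumour T123, while the other PBS tumours lay between 33.32 and 37.28 CPM. POLA2, the accessory subunit of polymerase alpha, was at 34.31 CPM in the same tumour and at 27.43 to 28.98 CPM in the other PBS tumours. RPA1 was at 97.36 CPM in the A2M* tumour T112, while the other A2M* tumours lay between 89.31 and 91.58 CPM.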

How the results depend on the processing

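With a threshold of 0.01 on the adjusted p, no gene and no member passed under any other scaling, filter or limma fit, nor with an adjusted p under 0.05 or any tumour left out (0 to 0). DESeq2 and the exact test each gave 1 gene, REP15, with adjusted p of 0.00308 and 0.00267. Where an unadjusted p up to 0.01 was asked of edgeR and DESeq2 alike, 241 genes passed and 1 member, RFC4. Members at an unadjusted p under 0.05 fell from 3 to 1, RFC4, with library size only and with limma on log2(RPKM + 0.1), were 2 without the filter and with the exact test, where MCM7 was lost, and numbered 1 to 3 with a tumour left out, being 1 without T123, T125, T127, T128, T130 or T131. The median log2 fold change of the members lay between -0.07175 and 0.0194 with a tumour left out. Their median pairwise r was 0.615 centred within each group, 0.625 with library size only, 0.624 on log2(RPKM + 0.1), and 0.545 to 0.61 with a tumour left out.

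Among 328 log2 fold changes of members under alternatives that kept all tumours, 16 in 9 members changed sign, none of them larger than 0.04127 in size. With library size only these were GINS3 0.03391, ORC1 0.0136, CDC6 0.001503, POLA1 0.007242, RPA3 0.04054, FEN1 0.03595, RRM1 0.02551 and CCNE1 0.0253, and with limma on RPKM GINS3 0.03342, ORC1 0.005876, RPA3 0.03744, FEN1 0.04127, RRM1 0.01241 and CCNE1 0.02655. Without a filter POLD1 stood at -0.0016, and with limma-voom FEN1 at 0.003431. With a tumour left out, 62 of 451 values in 20 members changed sign, and no value that did so was larger than 0.088 in size. These 20 members are listed with the range over all such fits. Their ranges were -0.02618 to 0.1006 in MCM2, -0.1215 to 0.02087 in MCM3, -0.03771 to 0.1099 in MCM4, -0.07342 to 0.04977 in GINS3, -0.04417 to 0.1729 in MCM10, -0.08774 to 0.05596 in ORC1, -0.101 to 0.05132 in CDC6, -0.1456 to 0.06168 in CDT1, -0.0278 to 0.09209 in PCNA and -0.01969 to 0.04406 in RFC1. They were -0.08914 to 0.001816 in RFC2, -0.01121 to 0.06769 in RFC5, -0.09022 to 0.01011 in POLA1, -0.088 to 0.0778 in POLD1, -0.0438 to 0.02152 in RPA3, -0.0578 to 0.06638 in FEN1, -0.07497 to 0.03285 in RRM1, -0.2234 to 0.01208 in TYMS, -0.079 to 0.08644 in CCNE1 and -0.1925 to 0.0113 in CCNE2. The cause was not tested. No paired analysis was possible because the groups share no tumour numbers. RFC4, MCM7 and LIG1 were among the 21 members without a change of sign. The lowest total, 16958533 counts, sets a limit of 0.177 RPM for 3 counts, below every member.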
